A study of Mus musculus with 4 samples.

Results

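The nuclear genes for subunits of the mitochondrial respiratory chain and ATP synthase were followed in primary hepatocytes (isolated liver parenchymal cells) from mice without Prom1 and from wild-type mice. Members were the protein-coding genes of GENCODE M21 named for a subunit of complex I (Ndufa, Ndufb, Ndufc, Ndufs and Ndufv), complex II (Sdha to Sdhd), complex III (Uqcr), complex IV (Cox4 to Cox8) or complex V (Atp5), without Ndufa4l2. The rule took 84 of the 22079 genes of the deposited table, 36 for complex I, 4 for complex II, 8 for complex III, 18 for complex IV and 18 for complex V. No expression value entered the rule. Ndufab1 of complex I and Cyc1 of complex III carry names outside it, and Ndufa4 is counted with complex I by its symbol although it is now known as a complex IV subunit.

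The KO libraries came from Prom1-/- mice and the WT libraries from wild-type mice, 2 libraries each, labelled as biological replicates. All animals were C57BL/6 males of 8 weeks. The cells of both genotypes attached for 4 hours in medium 199 with 10% serum, 23 mM HEPES and 10 nM dexamethasone, and were then held overnight in medium without serum before RNA was taken for mRNA sequencing. The sources used here do not say how the allele was made or whether a library came from 1 animal or from several.

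Complex I (NADH dehydrogenase) and complex II (succinate dehydrogenase) pass electrons from NADH and succinate to ubiquinone, complex III passes them on to cytochrome c, and complex IV (cytochrome c oxidase) reduces oxygen. Complexes I, III and IV pump protons across the inner mitochondrial membrane, and complex V (ATP synthase) uses the gradient to make ATP. Apart from complex II, each complex joins subunits encoded in the nucleus to subunits encoded in mitochondrial DNA. Hepatocytes are rich in mitochondria and use this ATP for gluconeogenesis, urea synthesis and protein secretion. The nuclear subunit genes are known targets of NRF1, the ETS factor GABP (NRF-2), YY1 and the estrogen-related receptors, with PGC-1 family coactivators.

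The promoters of the members were read from the RefSeq table of GRCm38.p6, which gives the 250 bases before and the 50 bases after each annotated start. Windows were found for 68 of the 83 member symbols, 73 windows in all, and were set beside 21262 windows of protein-coding genes. Motifs were matched by their letters on both strands. The NRF1 motif, GCGCA and GCGC with any base between them, was in 18 of the 73 member windows (24.7%) and in 6.38% of all windows. The ETS motif CCGGAAG was in 16 (21.9%) against 11.6% of all windows, and the YY1 motif AAGATGGC in 10 (13.7%) against 3.05%. The last letters of the ETS motif can be the first of the YY1 motif, so that the same bases may count for both. The estrogen-related receptor motif TCAAGGTCA was in 2 member windows (2.74%) and in 0.334% of all windows. CCAAT was in 42.5% of member windows against 38.2% of all windows, TATAAA in 11.0% against 12.6%, and ACGTG, the core of the hypoxia response element, in 26.03% against 20.9%. Such matches describe the letters of these windows and are not bound sites. The following stretches show these motifs for a member of each complex. All 6 lie on the minus strand, are written 5′ to 3′ in the direction of the gene, and end upstream of annotated exons. Capitals mark an NRF1 motif in Ndufb4 (chr16:37654454-37654618) and in Cox6a1 (chr5:115348982-115349129), an ETS motif in Sdhd (chr9:50603850-50603909), Uqcrh (chr4:116075072-116075268) and Uqcr11 (chr10:80406831-80407071), and an estrogen-related receptor motif in Atp5g3 (chr2:73911327-73911576), all in GRCm38.p6. In Sdhd, Uqcrh and Atp5g3 the motif reads in the opposite direction.
Ndufb4: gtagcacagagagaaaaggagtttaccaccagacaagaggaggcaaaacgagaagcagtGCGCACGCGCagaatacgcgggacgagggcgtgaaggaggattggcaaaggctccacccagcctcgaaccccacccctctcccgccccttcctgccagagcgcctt
Sdhd: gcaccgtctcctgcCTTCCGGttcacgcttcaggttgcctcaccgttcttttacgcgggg
Uqcrh: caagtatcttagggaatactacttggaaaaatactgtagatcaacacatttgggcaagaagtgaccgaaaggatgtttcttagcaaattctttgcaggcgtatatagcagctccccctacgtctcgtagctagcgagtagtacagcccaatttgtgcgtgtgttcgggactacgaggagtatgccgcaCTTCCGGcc
Uqcr11: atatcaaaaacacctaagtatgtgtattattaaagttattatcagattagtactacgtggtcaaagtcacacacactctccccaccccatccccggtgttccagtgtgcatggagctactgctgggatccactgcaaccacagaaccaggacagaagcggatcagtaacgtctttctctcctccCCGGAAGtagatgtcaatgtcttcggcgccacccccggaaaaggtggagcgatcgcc
Cox6a1: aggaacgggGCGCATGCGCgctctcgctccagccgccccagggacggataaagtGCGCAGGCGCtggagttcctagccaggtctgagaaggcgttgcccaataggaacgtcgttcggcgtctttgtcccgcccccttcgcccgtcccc
Atp5g3: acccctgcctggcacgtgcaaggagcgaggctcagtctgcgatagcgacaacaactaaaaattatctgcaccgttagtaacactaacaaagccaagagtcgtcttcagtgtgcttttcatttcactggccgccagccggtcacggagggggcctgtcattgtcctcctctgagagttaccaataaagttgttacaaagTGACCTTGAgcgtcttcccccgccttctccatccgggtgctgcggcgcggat

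For members with a window that were expressed highly enough to be tested between genotypes, the KO minus WT difference of log2(FPKM + 1) had a median of -0.03 in the 17 tested members with an NRF1 motif and of 0.01 in the 47 without it. For the ETS motif the medians were 0.05 (16 members) and 0.00 (48 members), and for the YY1 motif 0.05 (10 members) and 0.00 (54 members).

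The values are FPKM (fragments normalised to transcript length and to library size), so that levels of different genes can be compared per length. The estimated depth was 17000000 and 14600000 fragments in KO and 19400000 and 16400000 fragments in WT. Prom1, the knocked-out gene, was at 0 and 0.0458 FPKM in the KO libraries and at 0.571 and 1.22 FPKM in the WT libraries. The hepatocyte markers were abundant, with a median of 1098 FPKM, but Alb was listed at 0 in WT 2, so library totals were compared without it. All 13 protein-coding genes of mitochondrial DNA were listed at 0 in all 4 libraries, although every hepatocyte uses them. The mitochondrially encoded part of the complexes could therefore not be described.

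The nuclear subunit genes stood at nearly the same level in KO and WT hepatocytes. Of the 84 members, 76 had a mean of at least 1 FPKM and were tested, with differences from -0.35 (Ndufb4) to 0.43 (Atp5s) on the log2(FPKM + 1) scale. No member had an adjusted p under 0.05 by limma over the 10407 genes tested, where the share called over all genes was 0.0%, and the lowest adjusted p of a member was 0.587 (Atp5s). At an unadjusted p under 0.05, 2 members (Atp5s, higher in KO, and Ndufb4, lower in KO) differed, against 7.29% of all genes tested (3.1% higher and 4.19% lower). That count of members ran from 1 without WT 2 to 5 without WT 1, while the count over all genes, 759 with all libraries, ran from 318 without WT 2 to 1227 without KO 2.

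Of the 76 tested members, 37 were higher and 39 lower in KO, while 49.7% of all genes tested were higher. The median difference was -0.003 over the members and -0.001 over all genes tested. Rescaling each library to a common total without Alb moved this split to 48 higher and 28 lower, and the share of all genes that were higher to 58.3%. A difference of 1.25-fold or more on the log2(FPKM + 1) scale was seen in 2 of the 76 members, against 12.0% of all genes, and none reached 1.5-fold, against 2.66% of all genes. Since most members were highly expressed, the same was read over genes averaging 20 FPKM or more: 0 of the 74 members at that level differed 1.25-fold, against 8.97% of the 3657 genes there. The 95% interval of the difference lay between -0.5 and 0.5 in 66 of the 76 members, against 55.6% of all genes and 74.3% of those with at least 20 FPKM. The interval's ends lay a median of about 0.28 from the estimate over the members, without adjustment for the number of genes. Smaller differences could typically not be told from 0 with 2 libraries a group. Larger ones, such as 0.43 for Atp5s, did not pass the adjusted threshold either, so 0.28 is not a detection limit.

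**Figure D1:**
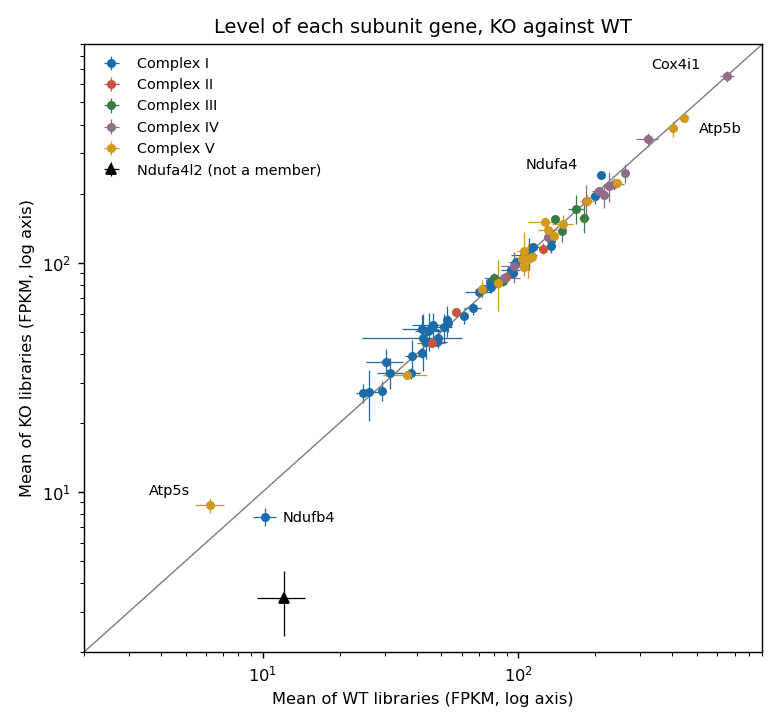
Mean FPKM of each of the 76 tested subunit genes in the KO libraries (vertical, log axis) against the WT libraries (horizontal, log axis), coloured by complex, with bars for the SD of 2 libraries and a line of equal levels. The genes lie along the line from Atp5s and Ndufb4 at the low end to Cox4i1 at the top, while Ndufa4l2 (triangle), which is not a member, lies below it.

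Libraries were counted as apart where both KO values lay above, or both below, the 2 WT values. This held for 18 of the 76 members (23.7%), 8 higher and 10 lower in KO, against 38.1% of all genes tested (18.3% higher and 19.8% lower). Over genes with at least 20 FPKM, 16 of 74 members (21.6%) and 39.0% of all genes were apart. With a common total without Alb, 28 members were apart, 19 higher and 9 lower (36.8%, against 36.6% of all genes), so the low share of members apart did not hold under that scaling.

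Complex I had the most members and the lowest median level, 52.7 FPKM (9.0 to 226 FPKM). Of its 36 genes, 22 were higher and 14 lower in KO, while 49.7% of all genes tested were higher. The median difference over these 36 genes was 0.03. Libraries were apart for 8 of the 36 (22.2%, against 38.1% of all genes tested), 4 in each direction. The summed level of the complex was 2389 and 2671 FPKM in KO against 2504 and 2457 FPKM in WT. The core genes of the electron-carrying arm lay close between the genotypes. Ndufv1, which holds the NADH-binding site, stood at 44.9 and 45.5 FPKM in KO and at 51.4 and 44.6 FPKM in WT. Ndufs1, the largest iron-sulfur subunit, stood at 25.7 and 29.6 FPKM in KO and at 29.5 and 29.0 FPKM in WT. For both genes the KO and WT values overlapped, and the differences were -0.08 (SE 0.11) each. Ndufs7, which carries the last iron-sulfur cluster before ubiquinone, was at 89.7 and 89.7 FPKM in KO and at 96.1 and 93.6 FPKM in WT, groups that did not overlap but differed by only -0.08.

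The largest differences in complex I were in accessory subunits. Ndufb4, an accessory subunit of the membrane arm (ENSMUSG00000022820, chromosome 16, minus strand), was the lowest member of the complex, at 7.30 and 8.26 FPKM in KO against 11.0 and 9.46 FPKM in WT. Both KO values lay below both WT values. The difference was -0.35 (SE 0.13, 95% interval -0.68 to -0.03, limma unadjusted p 0.0384, adjusted p 0.664). The lowest estimated number of fragments behind its value in a library was 117. A pseudogene, Ndufb4c, shares a nearly identical stretch of sequence with Ndufb4, so reads of Ndufb4 may have been shared. Ndufa10, which resembles nucleoside kinases, was at 31.6 and 34.3 FPKM in KO and at 35.8 and 40.4 FPKM in WT, and Ndufa7 of the matrix arm was at 114 and 123 FPKM in KO and at 133 and 134 FPKM in WT. Both were lower in each KO library than in either WT library, with differences of -0.20 and -0.17 (limma adjusted p 0.731 and 0.750).

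On the other side, Ndufa4, the highest member listed with complex I, was at 236 and 248 FPKM in KO against 210 and 211 FPKM in WT. Its KO values were both above its WT values, and the difference was 0.20 (SE 0.10, 95% interval -0.05 to 0.45, limma adjusted p 0.724). Ndufs5, an accessory subunit on the intermembrane side, was at 51.5 and 49.2 FPKM in KO and at 48.1 and 40.8 FPKM in WT (difference 0.18), and Ndufb6 and Ndufb11 of the membrane arm were apart by 0.07 and 0.09. A gene named BC002163 shares a nearly identical stretch of sequence with Ndufs5. Ndufb2, also of the membrane arm, had the highest difference of complex I, 0.29 (limma adjusted p 0.730), with 46.0 and 56.9 FPKM in KO against 46.5 and 37.1 FPKM in WT. Its groups overlapped, and it shares bases with Braf on the opposite strand. Ndufc1 varied most between libraries of a genotype, at 37.4 and 56.0 FPKM in KO and 54.8 and 29.7 FPKM in WT.

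Complex II, whose 4 subunits are all nuclear, summed to 301 and 315 FPKM in KO and to 323 and 311 FPKM in WT, a KO to WT ratio of 0.971 (exact permutation p 0.667, two-sided; 2 against 2 libraries cannot give a p below 1 in 3). Sdha, the flavoprotein that oxidises succinate, was at 87.7 and 86.0 FPKM in KO and at 93.2 and 84.9 FPKM in WT, and Sdhc, a membrane anchor, at 43.3 and 46.3 FPKM in KO and at 50.03 and 41.9 FPKM in WT. Both overlapped, with a difference of -0.03 each. Sdhb, the iron-sulfur subunit, was higher in both KO libraries, at 59.5 and 62.9 FPKM against 58.3 and 56.1 FPKM in WT (difference 0.10). Sdhd, the other anchor, was lower in both, at 111 and 119 FPKM against 122 and 128 FPKM in WT (difference -0.12, limma adjusted p 0.820).

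Complex III summed to 952 and 1060 FPKM in KO and to 1018 and 1016 FPKM in WT (ratio 0.989, exact permutation p 1). Its 8 genes lay between 83.0 and 170 FPKM. The Rieske iron-sulfur protein gene Uqcrfs1 was at 80.3 and 85.6 FPKM in KO and at 89.7 and 84.2 FPKM in WT, and the core protein genes were at 109 and 107 FPKM (Uqcrc1) and 82.7 and 88.6 FPKM (Uqcrc2) in KO, against 111 and 106 FPKM and 82.9 and 77.6 FPKM in WT. These 3 genes did not separate the genotypes, and neither did the accessory subunit gene Uqcrb, at 105 and 111 FPKM in KO and 114 and 96.8 FPKM in WT. Libraries were apart for 3 of the 8 genes (37.5%, against 38.1% of all genes tested), all of them small accessory subunits. Uqcrh, the hinge protein, was at 142 and 173 FPKM in KO and at 175 and 187 FPKM in WT, a difference of -0.21 (SE 0.13, limma adjusted p 0.763), with both KO libraries lower. Uqcr11 was at 151 and 159 FPKM in KO and at 137 and 140 FPKM in WT, a difference of 0.16 (SE 0.10, limma adjusted p 0.759), with both KO libraries higher. Uqcr10 was at 127 and 147 FPKM in KO and at 148 and 148 FPKM in WT, a difference of -0.11, with the values of KO 2 and the lower WT library almost equal. Uqcrq, the highest gene of the complex and also a small accessory subunit, overlapped at 154 and 189 FPKM in KO and at 160 and 176 FPKM in WT.

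Complex IV had the highest median level of the tested members, 206 FPKM (86.6 to 653 FPKM). None of the 11 tested genes counted with it by symbol separated the genotypes. Ndufa4, counted with complex I, was higher in both KO libraries. The sum of complex IV without Ndufa4 was 2427 and 2730 FPKM in KO and 2513 and 2733 FPKM in WT (ratio 0.983, exact permutation p 0.667). Cox4i1, the main form of subunit 4 and the highest of all members, was at 626 and 674 FPKM in KO and at 626 and 685 FPKM in WT (difference -0.01, 95% interval within -0.5 and 0.5). Cox5a, which pairs with subunit 4, was at 162 and 208 FPKM in KO and at 181 and 186 FPKM in WT, so both WT values lay between the KO values. The largest differences of the complex were -0.14 for Cox7a2, with 180 and 214 FPKM in KO against 210 and 222 FPKM in WT, 0.11 for Cox6a1, with 328 and 363 FPKM in KO against 299 and 344 FPKM in WT, and -0.10 for Cox7c, with 211 and 229 FPKM in KO against 222 and 251 FPKM in WT. All 3 overlapped. Cox7a2l was at 86.3 and 107 FPKM in KO and at 88.4 and 104 FPKM in WT, and Cox6b1, Cox7b and Cox8a overlapped likewise.

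Complex V summed to 2396 and 2623 FPKM in KO and to 2580 and 2526 FPKM in WT (ratio 0.983, exact permutation p 1), and 7 of its 17 tested genes were higher and 10 lower. Its libraries were apart for 5 of the 17 (29.4%, against 38.1% of all genes tested). Among the genes of the catalytic head and central stalk, Atp5b, the catalytic beta subunit, was at 422 and 432 FPKM in KO and at 450 and 439 FPKM in WT, and Atp5a1, the alpha subunit, at 223 and 225 FPKM in KO and at 248 and 237 FPKM in WT. Atp5c1, the gamma subunit of the rotor, was at 102 and 109 FPKM in KO and at 112 and 113 FPKM in WT. For these 3 genes both KO values lay below both WT values, by -0.06, -0.12 and -0.10 on the log2(FPKM + 1) scale, with limma adjusted p from 0.825 to 0.937. The other genes of that part overlapped, with Atp5d (delta) at 124 and 137 FPKM in KO and 136 and 139 FPKM in WT, and Atp5e (epsilon) at 95.4 and 129 FPKM in KO and 101 and 110 FPKM in WT. Atp5o, a stalk subunit, was at 90.2 and 101 FPKM in KO and at 109 and 101 FPKM in WT (difference -0.13), and its groups overlapped.

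Atp5s, the gene of coupling factor B, a protein found with ATP synthase, had the largest difference of all members. It lies on the plus strand of chromosome 12 (69724950 to 69744660 in mm10) and was the lowest tested member, at 8.27 and 9.20 FPKM in KO and at 6.80 and 5.66 FPKM in WT. Both KO libraries were higher. The difference was 0.43 (SE 0.14, 95% interval 0.09 to 0.77, limma unadjusted p 0.0213, adjusted p 0.587), and its lowest library value rests on an estimated 148 fragments.

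**Figure D2:**
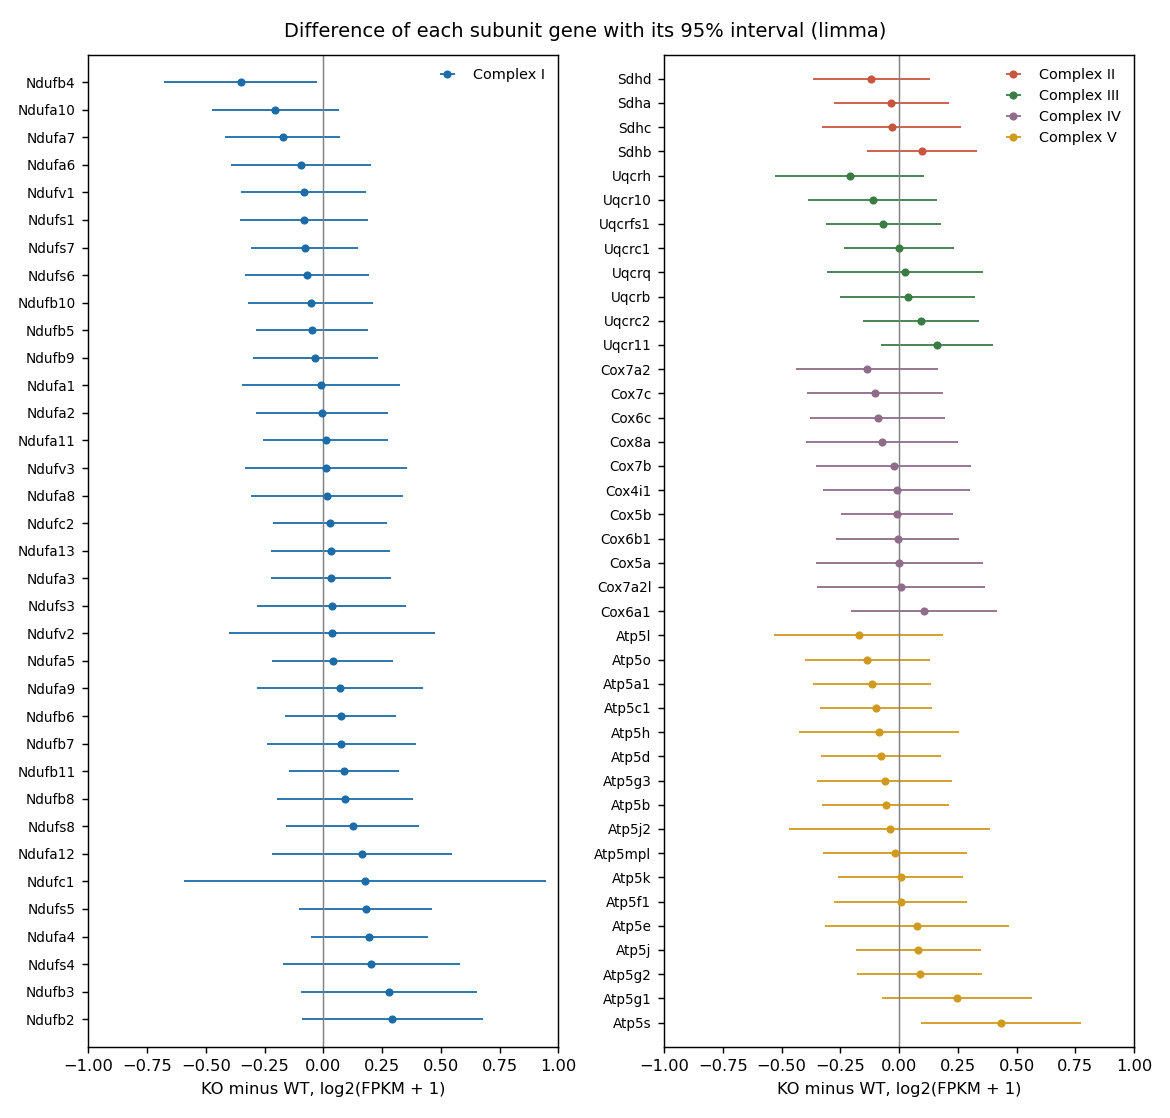
KO minus WT difference of log2(FPKM + 1) for the tested subunit genes reported here, with its 95% interval from limma, coloured by complex and ordered by size within it. Only the intervals of Ndufb4 (-0.68 to -0.03) and Atp5s (0.09 to 0.77) leave out 0. The 11 genes counted with complex IV by symbol, without Ndufa4, lie between -0.14 and 0.11.

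Subunit families with alternative forms were read as shares of the family's summed FPKM. The liver forms held nearly all of the listed FPKM of the complex IV families in both genotypes. The lung and hypoxia form Cox4i2, and Cox7b2, Cox8b and Cox8c, were listed at 0 in all 4 libraries beside Cox4i1, Cox7b and Cox8a. As with Alb in WT 2, a listed 0 can be a failed estimate, and it gives no limit on expression. Cox7a2 held 99.6% and 99.8% in KO and 99.1% and 99.6% in WT, with the muscle form Cox7a1 at 0.776 and 0.463 FPKM in KO and at 1.91 and 0.813 FPKM in WT. Cox6b2, the testis form, was above 0 in WT 2 only, at 0.308 FPKM. The muscle form Cox6a2 was at 1.33 and 0.631 FPKM in KO and at 0.265 and 0 FPKM in WT, higher in both KO libraries but under the expression filter. Acta1, a skeletal muscle actin, was at 8.57 and 20.2 FPKM in KO and at 5.49 and 3.10 FPKM in WT, and made up nearly all of the summed level of the 8 striated muscle markers, 6 of which (Ckm, Mb, Actn2, Tnnt2, Tnni3 and Myl2) were listed at 0 in all libraries. The part of muscle RNA in the Cox6a2 values was not tested. A second Atp5o identifier, which spans neighbouring genes, stood at or near 0 in all libraries, and with it the 8 members under the filter are accounted for.

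Subunit c, the ring of the ATP synthase rotor, is encoded by 3 genes that give the same mature protein. Atp5g1 held 24.9% and 24.3% of their sum in KO and 23.0% and 19.3% in WT (24.6% ± 0.492 and 21.2% ± 2.58, SD, n = 2 each). Atp5g3 held 62.6% and 63.0% in KO and 65.5% and 68.1% in WT, and Atp5g2 the rest. The KO shares lay above the WT shares for Atp5g1 and below them for Atp5g3. In FPKM, Atp5g1 was at 145 and 156 in KO and at 140 and 115 in WT (difference 0.25, SE 0.13, limma adjusted p 0.727), while Atp5g3, at 363 and 407 FPKM in KO and 399 and 404 FPKM in WT, overlapped. Gm10039 shares a nearly identical stretch of sequence with Atp5g1, and reads may have been shared.

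Ndufa4l2, a homologue of Ndufa4 that hypoxia induces, was left out by the rule. It was at 4.18 and 2.68 FPKM in KO and at 10.3 and 13.9 FPKM in WT, both KO values lower, with a difference of -1.57 (SE 0.22, limma unadjusted p 0.000407, adjusted p 0.326). Its share of the summed FPKM of Ndufa4 and Ndufa4l2 was 1.74% and 1.07% in KO and 4.67% and 6.20% in WT. It overlaps Shmt2 on the opposite strand, which was at 57.3 and 54.1 FPKM in KO and at 74.9 and 80.7 FPKM in WT, and the sources used here do not say whether strand was used in counting. Other genes of the hypoxic adaptation of the chain were less far apart, with Lonp1, a matrix protease, at 154 and 121 FPKM in KO and 137 and 101 FPKM in WT, and Higd1a at 29.8 and 25.7 FPKM in KO and 25.8 and 35.4 FPKM in WT. Both overlapped.

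**Figure D3:**
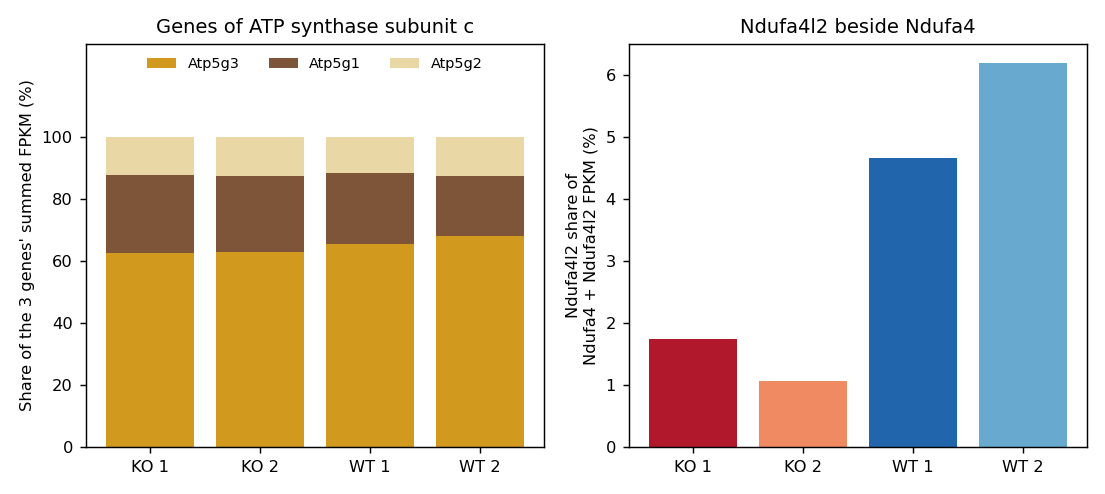
Left, shares of Atp5g3, Atp5g1 and Atp5g2 in the summed FPKM of the 3 subunit c genes in each library (%). Right, the share of Ndufa4l2 in the summed FPKM of Ndufa4 and Ndufa4l2 (%), which was 1.74% and 1.07% in the KO libraries and 4.67% and 6.20% in the WT libraries.

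The 2 KO libraries stood apart from each other across the subunit genes. KO 2 lay above KO 1 in 69 of the 76 tested members, against 53.2% of all genes tested and 65.0% of those with at least 20 FPKM, by a median of 0.149 on the log2(FPKM + 1) scale. WT 2 lay above WT 1 in 36 of the 76, against 49.7% of all genes. KO 1 was the lowest of the 4 libraries for 41 members, or 53.9% against 30.8% of all genes and 39.5% of those with at least 20 FPKM. KO 2 was the highest for 40, against 26.3% of all genes and 33.6% of those with at least 20 FPKM. By complex, KO 2 lay above KO 1 in 32 of 36 genes of complex I and 3 of 4 of complex II. It did so in 7 of 8 genes of complex III, 11 of 11 of complex IV and 16 of 17 of complex V. In complex IV, WT 2 also lay above WT 1 in 11 of 11 genes. Over all members the summed level was 8466 and 9399 FPKM in KO and 8939 and 9043 FPKM in WT (8932 ± 660 and 8991 ± 73.4 FPKM, SD, n = 2 each, exact permutation p 1). As a share of each library's total without Alb it was 1.79% and 1.83% in KO and 1.81% and 1.74% in WT. With libraries rescaled to that total, KO 2 lay above KO 1 in 42 members (55.3%), against 34.3% of all genes.

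Sums of endothelial, stellate and bile duct markers ran in the opposite direction within KO. Macrophage markers were divided, with KO 2 above KO 1 in 4 of the 8 tested. The 10 endothelial markers, 9 of them tested, summed to 71.4 and 37.0 FPKM in KO and to 52.9 and 51.0 FPKM in WT. The 10 stellate cell markers, 3 tested, summed to 26.03 and 11.7 FPKM in KO and to 15.2 and 17.1 FPKM in WT, and the 8 cholangiocyte markers, 2 tested, to 37.4 and 24.0 FPKM in KO and to 36.0 and 34.0 FPKM in WT. Each of these sums was highest in KO 1 and lowest in KO 2. Dcn gave most of the stellate sum in KO (17.5 and 7.02 FPKM), and Spp1 most of the cholangiocyte sum (27.0 and 16.8 FPKM). Sox9, the other tested cholangiocyte marker, was also lower in KO 2 (9.68 and 6.05 FPKM in KO). Krt19, under the filter, was not (0.167 and 0.188 FPKM in KO). Of the 10 hepatocyte markers, 8 went the way of the subunit genes within KO, with KO 2 above KO 1. The share over all genes tested was 53.2%, and 65.0% over those with at least 20 FPKM. Library medians of log2(FPKM + 1) around the gene means of these markers were -0.238 and 0.050 in KO and -0.082 and 0.149 in WT. Hnf4a went the other way within KO, at 64.9 and 59.5 FPKM, and was at 90.4 and 95.8 FPKM in WT. Libraries were apart for 3 of the 10 markers (30%, against 38.1% of all genes tested), 1 higher and 2 lower in KO. Macrophage markers, 8 of 10 tested, summed to 429 and 497 FPKM in KO and to 378 and 376 FPKM in WT, most of it from Cd68. Without Cd68 they summed to 36.1 and 31.7 FPKM in KO and to 20.9 and 25.1 FPKM in WT. Of the 8 tested, 4 were apart higher in KO and 1, C1qa, apart lower, against 18.3% higher and 19.8% lower among all genes tested. Of the 8 lymphocyte markers, 7 were in the table, 3 were listed at 0 in all libraries and none was tested. In bulk libraries fewer cells of a type and less RNA per cell cannot be told apart, and the part of other cells in the spread of the subunit genes was not tested.

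**Figure D4:**
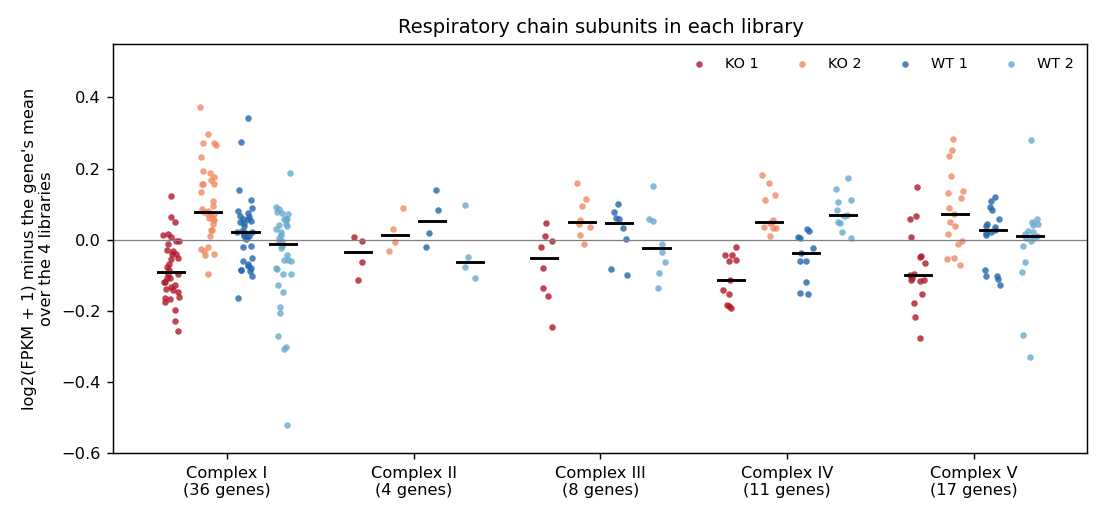
Level of each tested subunit gene in each library, as log2(FPKM + 1) minus the gene's mean over the 4 libraries, by complex; points are genes and black lines medians. KO 1 (dark red) lies lowest and KO 2 (orange) highest in complexes I and V, with medians of -0.090 and 0.079 in complex I, and the WT libraries lie between them.

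The other genes needed to build and run the chain were described by the same counts. Of 55 assembly factor genes, 54 were tested, 27 higher and 27 lower in KO, with a median of -0.00, and 21 (38.9%) were apart, close to the 38.1% of all genes. None passed by adjusted p, and 2 of the 54 had an unadjusted p under 0.05, against 7.29% of all genes tested; both are complex III factors. Lyrm7, which escorts the Rieske protein, was at 2.80 and 2.35 FPKM in KO and at 1.03 and 1.49 FPKM in WT, a difference of 0.66 (SE 0.20, limma unadjusted p 0.0149, adjusted p 0.579). Uqcc1, needed for cytochrome b synthesis, was at 25.3 and 27.0 FPKM in KO and at 20.3 and 20.9 FPKM in WT, a difference of 0.33 (SE 0.10, limma unadjusted p 0.0169, adjusted p 0.586). Both KO libraries were higher for both genes. Of the 6 complex III factors, 4 were higher and 2 lower, with a median of 0.26. Bcs1l, which inserts the Rieske protein, overlapped at 8.02 and 5.67 FPKM in KO and 6.41 and 4.22 FPKM in WT. Among factors for the other complexes the largest differences were 0.30 for Ndufaf8 of complex I, -0.27 for Sdhaf4 of complex II, -0.36 for Coa4 of complex IV and 0.25 for Atpaf1 of complex V, with limma adjusted p from 0.711 to 0.813.

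Genes of ubiquinone (coenzyme Q) synthesis, the mobile carrier between complexes I, II and III, had 8 of 13 members apart (61.5%, against 38.1% of all genes tested), 4 in each direction, and none past the adjusted threshold. Coq8b, an atypical kinase of the pathway, was at 19.5 and 19.8 FPKM in KO and at 25.4 and 25.6 FPKM in WT (difference -0.36, SE 0.10, limma unadjusted p 0.00968, adjusted p 0.562). Coq10a, a ubiquinone-binding protein, was at 8.63 and 12.9 FPKM in KO and at 15.5 and 16.6 FPKM in WT (difference -0.55, SE 0.19, limma unadjusted p 0.0265, adjusted p 0.614). Both were lower in each KO library, while Coq2, which joins the ring to its tail, was higher in each, at 35.4 and 38.7 FPKM in KO against 31.7 and 27.8 FPKM in WT (difference 0.31, limma unadjusted p 0.0341); Coq2 was named after its values were seen. Coq8a, a relative of Coq8b, was at 6.67 and 8.53 FPKM in KO and at 11.1 and 8.66 FPKM in WT, lower in both by a narrow margin.

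The remaining lists had medians between -0.08 and 0.03. The 5 subunit or subunit-like genes with names outside the rule (Ndufab1, Cyc1, Cycs, Atpif1 and Usmg5) had a median of -0.03, with Ndufab1 at 28.8 and 36.7 FPKM in KO and 33.4 and 37.4 FPKM in WT, and Cyc1 at 160 and 157 FPKM in KO and 147 and 155 FPKM in WT. Against the 38.1% of all genes tested whose libraries were apart, cristae organisers had 2 of 9 genes apart (22.2%, median -0.04), and the tricarboxylic acid cycle 3 of 13 (23.1%, median -0.08), led by Mdh2 at 0.20 and Ogdh at -0.19. The 78 mitochondrial ribosomal protein genes had a median of 0.01, with 23 apart higher and 12 apart lower in KO (44.9% in all, against 18.3% higher and 19.8% lower among all genes tested). Of these, Mrpl41 was at 14.6 and 12.5 FPKM in KO and 18.8 and 18.5 FPKM in WT (difference -0.44, limma adjusted p 0.562), and Mrpl23 was at 14.1 and 13.7 FPKM in KO and 9.89 and 11.3 FPKM in WT (difference 0.37, limma adjusted p 0.586). Among 18 regulators of mitochondrial biogenesis, 15 were tested, 9 higher and 6 lower, with a median of 0.03. Yy1 was at 13.5 and 16.2 FPKM in KO and 16.4 and 20.02 FPKM in WT (difference -0.28, limma adjusted p 0.725), and Mterf3, a mitochondrial transcription and ribosome factor, at 24.3 and 27.9 FPKM in KO and 20.5 and 22.2 FPKM in WT (difference 0.28, limma adjusted p 0.686). Yy1 was lower and Mterf3 higher in both KO libraries. Of the 15 tested regulators, 6 were apart (40%, against 38.1% of all genes tested). Ppargc1a, which encodes PGC-1alpha, lay under the filter at 0.432 and 0.453 FPKM in KO and 0.482 and 0.648 FPKM in WT.

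The members shared gene features that the rule did not use. They lie on 19 chromosomes. The longest annotated transcript of the tested members had a median of 1087.5 bases, against 3327 bases over 10383 tested protein-coding genes, and 46.1% of them were shorter than 1 kb, against 4.33%. A protein-coding neighbour transcribed in the opposite direction began within 1000 bases of 19 of the 76 (25%), against 11.0% of tested protein-coding genes. A gene overlapped on the opposite strand for 29 of the 84 members and on the same strand for 13. A stretch of at least 200 bases was shared at 95% identity or more with a gene elsewhere for 17. Such a stretch does not make the whole genes near-identical (Senp6 is listed for Atp5l). The values of all these members may depend on how reads were assigned.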

How the data were processed

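Messenger RNA of 4 hepatocyte libraries was read from the table that the authors deposited, with 1 value per gene and library. The deposited values were taken as FPKM, from the tools and from the values, since no header states the unit. Per the submitters' processing notes the tools were STAR 2.5.0, Cufflinks and Cuffdiff 2.2.1 with the build mm10; the sources used here give neither annotation nor strand setting. Libraries were made with a stranded TruSeq mRNA kit, per the labels' protocols. Identifiers were matched to GENCODE M21 (21984 of 22079). FPKM is scaled per library, so only relative levels can be compared. Genes averaging 1 FPKM or more (10407) were compared as log2(FPKM + 1), which understates differences of low genes, with limma 3.58.1 in R 4.3.3 (lmFit, eBayes with an intensity trend), two-sided, genotype as the only term, Benjamini-Hochberg threshold 0.05. Each p-value sets a gene's difference against the spread between these libraries, moderated by the trend over all genes tested. The depth was estimated from the steps of low values of 3579 genes with a single transcript, assuming fragments of 200 bases. Genes sharing a near-identical stretch with a member were searched with blastn 2.17.0. The fit was tested on simulated data.

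Named genes were, per complex, the 3 with the largest moderated t, those with unadjusted p under 0.05, the highest and lowest, subunits with alternative forms and catalytic subunits; of other lists, the 3 with the largest differences, of which the leading ones are given. A gene that the rule takes is not reported here. Members with KO and WT libraries apart, Uqcrb, Atp5d, Atp5e and Ndufc1 were named after their values were seen. So were Cd68, C1qa, Hnf4a, Lonp1, Higd1a, Shmt2, Coq2 and Ppargc1a. Members and lists were chosen with earlier results of these data known. Alternatives were other pseudocounts, filters and scalings, no trend, a replicate block, each library left out and other memberships.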

Additional observations from a re-analysis of the deposited data

How the results depend on the processing

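The deposited FPKM allow no count model, and with 2 libraries a group the spread between libraries sets the precision. No member passed the adjusted threshold under any of the alternatives run. Of 396 alternative values of 33 named genes, 367 kept their direction and 29, in 14 genes, changed sign, all of differences that were never called. With a common total without Alb, 28 members were apart, the median of the genes outside the rule was 0.0090, and the differences were 0.0058 for Sdha, 0.0068 for Sdhc, 0.030 for Cox4i1, 0.016 for Cox7b, 0.033 for Cox6b1 and 0.040 for Uqcrc1. With median-ratio scaling Uqcrc1 was at 0.0045. Keeping genes with a mean above 5 FPKM put the median of coenzyme Q genes at -0.047, and without Sdhd the summed log2 ratio of complex II was 0.0051.

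With 1 library left out, genes past the adjusted threshold ranged from 0 to 8 (5 without KO 1 and 8 without WT 1, none of them members), all genes at an unadjusted p under 0.05 from 318 (without WT 2) to 1227 (without KO 2), members from 1 to 5, and members apart, which is easier with 3 libraries, from 41 to 51. The medians ranged from -0.096 to 0.074 over all members, -0.086 to 0.12 in complex I, -0.090 to 0.062 in II, -0.059 to 0.031 in III, -0.15 to 0.033 in IV and -0.12 to 0.081 in V. Summed log2 ratios ranged from -0.087 to 0.064 over all members, -0.054 to 0.11 in complex I, -0.075 to -0.011 in II, -0.095 to 0.060 in III, -0.11 to 0.058 in IV and -0.091 to 0.039 in V. List medians ranged from -0.064 to 0.031 for assembly factors, -0.027 to 0.074 for coenzyme Q, -0.055 to 0.017 for cristae, -0.025 to 0.041 for regulators, -0.011 to 0.068 for mitochondrial ribosomes, -0.013 to 0.053 for genes outside the rule and -0.085 to -0.0014 for the tricarboxylic acid cycle. Gene differences that changed sign ranged from -0.0058 to 0.18 (Atp5g2), -0.14 to 0.019 (Atp5g3), -0.075 to 0.055 (Cox4i1), -0.18 to 0.18 (Cox5a), -0.069 to 0.055 (Cox6b1), -0.15 to 0.16 (Cox7a2l), -0.19 to 0.14 (Cox7b), -0.22 to 0.074 (Cox8a), -0.18 to 0.017 (Ndufs1), -0.18 to 0.017 (Ndufv1), -0.10 to 0.032 (Sdha), -0.16 to 0.092 (Sdhc), -0.034 to 0.034 (Uqcrc1) and -0.12 to 0.17 (Uqcrq). Others kept their sign but moved by over 1.5 times, from 0.14 to 0.45 (Ndufb2), 0.057 to 0.14 (Sdhb), -0.17 to -0.065 (Sdhd), -0.35 to -0.069 (Uqcrh), -0.22 to -0.012 (Uqcr10), 0.043 to 0.14 (Uqcrc2), -0.11 to -0.021 (Uqcrfs1), -0.26 to -0.013 (Cox7a2), 0.0051 to 0.21 (Cox6a1), -0.19 to -0.014 (Cox7c), 0.10 to 0.39 (Atp5g1) and -0.22 to -0.051 (Atp5o). The cause was not tested.

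The replicate numbers do not pair the samples, since no label ties a KO to a WT library; over 10407 genes the deviations KO 1 minus KO 2 and WT 1 minus WT 2 correlated at 0.151. With the replicate block, 0 genes passed the adjusted threshold and 1054 an unadjusted p under 0.05, 2 of them members.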
